A study of Mus musculus with 35 samples.

Results

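The genes described are 10 genes of T and natural killer (NK) cells, taken as named, out of 21887 protein-coding mouse genes on chromosomes 1 to 19, X and Y: Cd96, Il2rb, Cd247, Gata3, Tcf7, Lef1, Cd3e, Klrd1, Eomes and Tbx21. Histone ChIP-seq was run on bone marrow of C57BL/6 mice for H3K4me1, H3K4me3 and H3K27ac, with 2 biological replicates for each of 5 groups. The groups were lineage-negative haematopoietic stem and progenitor cells (HSPC) of wild-type (WT) mice, of Npm1c mice, of Flt3-ITD mice and of DM mice, and neutrophils of WT mice. Npm1c is a mutant nucleophosmin and Flt3-ITD an internal tandem duplication of the receptor tyrosine kinase Flt3, both common in acute myeloid leukaemia. The labels do not spell out DM, which is taken to stand for mice with both mutations. HSPC were isolated by lineage depletion, a bulk selection that leaves a mixture of progenitors, and neutrophils with an isolation kit. The labels used here state no age, sex, pooling of animals, inducing agent or Cre driver for the mutant alleles. For each gene the base pairs (bp) under a library's peaks were summed over the gene's span plus 10 kb on each side, or plus 5 kb for H3K4me3. The 30 libraries with peak files entered, and 5 input samples were not used here.

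T and NK cells arise from bone marrow progenitors that also make myeloid cells, and their signalling genes are for the most part silent until the lymphoid lineage is chosen. H3K4me3 marks promoters, H3K4me1 marks enhancers and the flanks of promoters, and H3K27ac is added where promoters and enhancers are active. A gene that carries the methylation marks without acetylation is often described as open to later activation. Of the members, Cd3e and Cd247 encode the CD3 epsilon and zeta signalling chains of the T cell receptor complex, and zeta also serves NK receptors. Il2rb encodes the beta chain shared by the interleukin-2 and interleukin-15 receptors. Cd96 and Klrd1 (CD94) encode surface receptors of NK and T cells. Gata3, Tcf7 and Lef1 encode transcription factors of early T cell development, and Eomes and Tbx21 (T-bet) encode T-box factors of cytotoxic and NK cells.

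The libraries were checked against fixed marker lists of 8 genes for each cell type. All 8 neutrophil markers had an H3K27ac peak in both neutrophil libraries, and their summed coverage was 27.9 and 29.8 kb there against 0 to 2.40 kb in the 8 HSPC libraries. Of the HSPC markers, 7 had H3K27ac in both WT HSPC libraries and 2 in both neutrophil libraries. Of the T cell markers, 4 (Cd3d, Cd3g, Lck and Lat) had H3K27ac in both libraries of WT, Npm1c and Flt3-ITD HSPC and of neutrophils, and 5 in DM HSPC, where Cd4 was added. These counts take the gene's span plus 10 kb on each side, and neighbours' peaks were not separated out for the markers. Cd3e, itself a member, was at 0 bp in every library. Of the NK markers, which include Klrd1, Nkg7 had H3K27ac in both libraries of every group, and Klrb1c also did in Npm1c and Flt3-ITD HSPC. Peak lists covered 15.2 to 23.9 Mb in the H3K27ac libraries other than DM replicate 2, which covered 13.5 Mb, and the depth behind them is unknown because the files hold peak positions without counts. The Npm1c H3K27ac lists were the longest, and the median gene was 0.36 higher than in WT on the log2(bp + 500) scale.

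In WT HSPC, 8 of the 10 members had H3K4me1 and H3K4me3 peaks in both libraries and no H3K27ac peak in either, a state held by 14.9% of all genes. Cd247 had all 3 marks, and Cd3e had H3K4me1 alone. H3K27ac was thus found in both WT libraries at 1 of 10 members, against 54.2% of all genes. In neutrophils, 7 members had both methylation marks without H3K27ac, against 12.4% of all genes, and 0 of 10 members had an H3K27ac peak in either library. Il2rb, Cd3e and Klrd1 had H3K4me1 alone in neutrophils. Because these genes were chosen with earlier results of these data known, the shares describe the members and test nothing. In bulk chromatin, fewer cells carrying a mark and less of the mark per cell cannot be told apart.

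**Figure D1:**
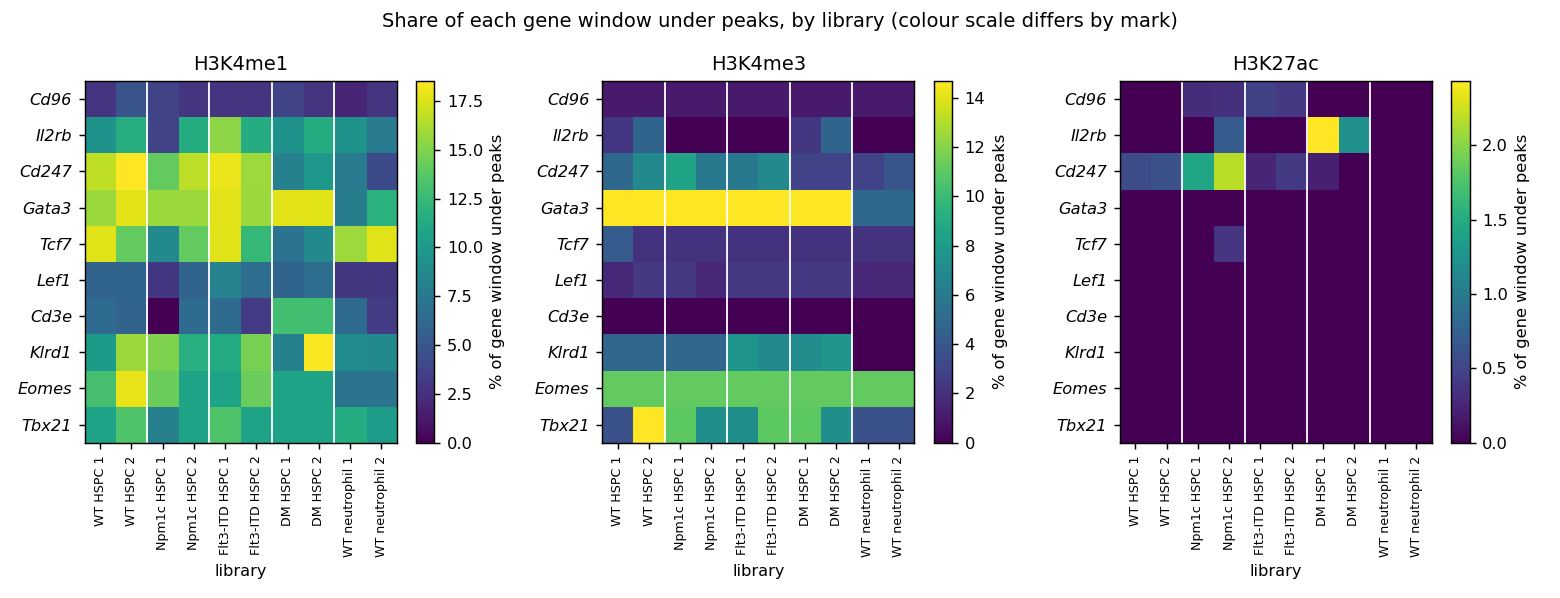
Share of each gene window under peaks (colour, %) for the 10 members (rows) in the 10 libraries of each mark (columns, 2 per group, white lines between groups). Colour scales differ by mark. H3K27ac appears at Cd96, Il2rb, Cd247 and, in 1 library, Tcf7, while H3K4me1 is found at nearly every member.

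Coverage per length of window differed among members. For H3K4me3, Gata3 had 14.7% of its window under peaks in each HSPC library and Eomes 11.1% in each of the 10 libraries. Cd96 had 1.06% in each of the 10 libraries, which was 1 peak of 1 kb at its start site. Cd3e had no H3K4me3 peak in any library. For H3K4me1, the mean share of the window over the 10 libraries was highest at Gata3 (15.3%), Tcf7 (13.4%) and Cd247 (13.0%) and lowest at Cd96 (3.16%). The ranges of these 3 highest members overlapped. The peaks fell into 104 separate H3K4me1 regions, of which 23 were present in all 10 libraries and 19 in 1 library. H3K4me3 gave 33 regions, 12 of them present in all 10 libraries, and H3K27ac gave 11 regions, 7 of them present in 1 library.

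Promoter sequences are shown for Cd96, the only one of the 8 members with an annotated window that had H3K27ac over it in both libraries of a group, for Gata3, with H3K4me3 and no H3K27ac there in any library, and for Cd247 and Cd3e, with neither mark there. Each run is 300 bases from RefSeq (GRCm38.p6, the assembly of mm10), written 5′ to 3′ on the gene's strand, from 250 bases before the annotated start site to 50 after it. RefSeq windows matched 8 of the 10 members, with 12 start sites, and Il2rb and Klrd1 had none in the table. Capitals mark matches on either strand to 5 short motifs: TGTGGT of RUNX factors, AGATAA of GATA factors, CTTTGA of TCF/LEF factors, CCGGAA of ETS factors and TCACAC of T-box factors. No match in these windows overlaps another.
Cd96, chr16:46120199-46120498, minus strand: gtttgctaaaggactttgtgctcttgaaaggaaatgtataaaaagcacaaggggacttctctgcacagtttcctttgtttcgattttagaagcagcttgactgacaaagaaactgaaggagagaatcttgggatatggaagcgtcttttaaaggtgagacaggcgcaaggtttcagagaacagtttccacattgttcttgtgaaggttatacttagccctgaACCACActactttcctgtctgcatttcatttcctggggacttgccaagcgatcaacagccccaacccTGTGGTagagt
Gata3, chr2:9878551-9878850, minus strand: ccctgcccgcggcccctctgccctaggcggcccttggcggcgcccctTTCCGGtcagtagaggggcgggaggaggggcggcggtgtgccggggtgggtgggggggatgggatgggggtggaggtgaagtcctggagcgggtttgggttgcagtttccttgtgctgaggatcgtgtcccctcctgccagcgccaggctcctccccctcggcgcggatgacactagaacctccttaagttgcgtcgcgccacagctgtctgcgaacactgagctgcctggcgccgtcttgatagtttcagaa
Cd247, chr1:165788431-165788730, plus strand: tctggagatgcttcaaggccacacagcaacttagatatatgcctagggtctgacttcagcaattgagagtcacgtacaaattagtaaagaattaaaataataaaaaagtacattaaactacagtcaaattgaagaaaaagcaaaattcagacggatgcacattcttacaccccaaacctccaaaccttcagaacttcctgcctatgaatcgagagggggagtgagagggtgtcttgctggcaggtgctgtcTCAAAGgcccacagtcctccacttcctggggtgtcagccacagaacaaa
Cd3e, chr9:45009562-45009861, minus strand: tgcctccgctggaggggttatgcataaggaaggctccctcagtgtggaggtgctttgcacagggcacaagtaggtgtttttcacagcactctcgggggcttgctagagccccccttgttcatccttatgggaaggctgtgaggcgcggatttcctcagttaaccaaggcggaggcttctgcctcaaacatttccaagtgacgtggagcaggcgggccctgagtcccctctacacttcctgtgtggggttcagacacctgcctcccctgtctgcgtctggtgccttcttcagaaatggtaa

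The Cd96 window held 2 RUNX matches, 4 CpG dinucleotides and 43.7% G+C. RUNX matches were found in 15.0% of the 21263 promoters of the table. The Gata3 window held 1 ETS match (18.7% of promoters), 22 CpG and 67.3% G+C, and the Cd247 window held 1 TCF/LEF match (14.4% of promoters), 3 CpG and 43.7% G+C. The Cd3e window held none of the 5 motifs and 8 CpG. The median promoter had 13 CpG and 56.3% G+C. The other member windows ranged from 5 CpG at the most distal of the Lef1 starts to 45 at a Tcf7 start. That Lef1 window held 1 GATA match (9.65% of promoters) and 2 TCF/LEF matches, 1 Tcf7 window held an ETS match, and T-box matches (13.2% of promoters) were in none of the 12 windows. A match is a description of these letters and shows no binding.

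The promoter windows differed in their marks. H3K4me3 overlapped those of Cd96, Gata3, Tcf7 and Tbx21 in all 10 libraries and that of Eomes in 8. It lay within 1 kb of the annotated Eomes start site in all 10. In WT HSPC, 4 of 8 matched members had H3K4me3 over the promoter window in both libraries, against 54.4% of the 17492 genes with a window. H3K27ac over the promoter in both libraries was found at 0 of 8 in WT HSPC (40.6% of genes), at Cd96 in Npm1c (43.8%) and Flt3-ITD HSPC (41.7%), and at 0 of 8 in DM HSPC (39.2%) and neutrophils (36.6%). The annotated Cd247 window, which lies inside the gene's span, had neither H3K4me3 nor H3K27ac in any library. Of the 9 H3K4me3 regions of Cd247, 3 were present in all 10 libraries. One of them, chr1:165779930-165781202, lay at the 5′ end of the gene's span, where the H3K27ac region chr1:165780091-165780648 also lay, and the others, chr1:165840558-165841730 and chr1:165844572-165845791, lay inside the gene.

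H3K27ac was compared between groups with limma on log2(bp + 500), over the 13637 genes with a peak in 2 or more H3K27ac libraries, with Benjamini-Hochberg adjustment over all of them and a threshold of 0.05. Only Cd96, Il2rb and Cd247 passed that filter. Tcf7 was covered in 1 library, by a peak of 213 bp in Npm1c replicate 2, and Gata3, Lef1, Cd3e, Klrd1, Eomes and Tbx21 were at 0 bp in all 10. The 3 members that passed did so through the groups where they were covered, so counts among them describe and support nothing. The same holds for the p-value of any gene, list genes included, that was covered only in the groups where it was high. Differences from a group at 0 bp depend on the added 500 bp and are no fold changes. The comparisons with WT share the same WT libraries, and those of DM with the single mutants share the DM libraries.

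Cd96, whose product is a receptor for a nectin-like ligand, had H3K27ac in the single mutants and in no other group. Coverage was 0 and 0 bp in WT, 322 and 348 bp in Npm1c, 490 and 421 bp in Flt3-ITD, 0 and 0 bp in DM and 0 and 0 bp in neutrophil libraries. The values of both single mutants lay above those of the other groups without overlap. All of it lay in 1 region over the start site, chr16:46119850-46120339, which overlaps the promoter printed above and the H3K4me3 region present in all 10 libraries. The difference from WT was 0.74 ± 0.11 (SE on the log2 scale, adjusted p = 0.0167) in Npm1c HSPC and 0.93 ± 0.11 (adjusted p = 0.0442) in Flt3-ITD HSPC. The difference of DM HSPC was -0.74 ± 0.11 from Npm1c (adjusted p = 0.00353) and -0.93 ± 0.11 from Flt3-ITD HSPC (adjusted p = 0.00911). Cd96 passed the filter only through these 4 single-mutant libraries, so these p-values describe the values above. Without the filter they were 0.000242 to 0.000566, from the same values, so the smaller p-values add no support. The Npm1c call ended without WT replicate 1 (adjusted p = 0.136), WT replicate 2 (0.128) or either neutrophil library (0.058 each) and with libraries centred on their medians (0.325), and the Flt3-ITD call ended without any of the WT, Flt3-ITD or neutrophil libraries (0.0591 to 0.483) and with centring (0.0702). The call between DM and Flt3-ITD HSPC ended without neutrophil replicate 1 (0.072) or 2 (0.0721), and that between DM and Npm1c HSPC ended with centring (0.142). All 4 ended with lists cut to their widest peaks (0.0767 to 0.262).

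Il2rb had H3K27ac mainly in DM HSPC. Coverage was 0 and 0 bp in WT, 0 and 371 bp in Npm1c, 0 and 0 bp in Flt3-ITD, 1274 and 640 bp in DM and 0 and 0 bp in neutrophil libraries. Both DM values lay above those of all other libraries. Most of it was a region inside the gene, chr15:78509953-78510947, with 908 and 640 bp in DM, and the region chr15:78515460-78515825 in DM replicate 1 alone also lay in the window of the neighbour C1qtnf6. DM HSPC exceeded WT by 1.51 ± 0.29 (SE, log2 scale, adjusted p = 0.0172), Flt3-ITD HSPC by 1.51 ± 0.29 (adjusted p = 0.0433) and Npm1c HSPC by 1.11 ± 0.29 (adjusted p = 0.0233). Il2rb passed the filter through both DM libraries and 1 Npm1c library. All 3 calls ended without the filter (adjusted p from 0.0582 to 0.124) and with peak centres counted in place of bp (0.104 to 0.259). The call against WT also ended without DM replicate 1 (0.0527), WT replicate 1 (0.11) or WT replicate 2 (0.104), and that against Npm1c ended without DM replicate 1 (0.076) or Npm1c replicate 1 (0.0901). The call against Flt3-ITD ended without DM replicate 1 or any WT, Flt3-ITD or neutrophil library (0.0571 to 0.196). With lists cut by a seeded draw to equal length, the calls against Flt3-ITD (0.0864) and Npm1c HSPC (0.0599) ended too.

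Cd247 was the only member with H3K27ac in both WT HSPC libraries. Coverage was 619 and 666 bp in WT, 1605 and 2415 bp in Npm1c, 291 and 464 bp in Flt3-ITD, 243 and 0 bp in DM and 0 and 0 bp in neutrophil libraries. The Npm1c libraries were the highest and did not overlap any other group. Npm1c HSPC exceeded WT by 1.12 ± 0.23 (SE, log2 scale, adjusted p = 0.0265) and Flt3-ITD HSPC by 1.50 ± 0.23 (adjusted p = 0.0236). DM HSPC was lower than Npm1c (-2.02 ± 0.23, adjusted p = 0.00168) and than WT HSPC (-0.91 ± 0.23, adjusted p = 0.0436), and neutrophils were lower than WT HSPC (-1.19 ± 0.23, adjusted p = 0.00674). The drop from Npm1c to DM HSPC passed under all 19 alternatives run. Without the filter the Npm1c calls against WT (0.0681) and Flt3-ITD (0.0662) and the DM call against WT (0.137) ended, and with peak centres counted so did these 3 and the neutrophil call (0.0753 to 0.370). The Npm1c call against WT also ended with centring (0.117) and without Npm1c replicate 2 or any WT or neutrophil library (0.0561 to 0.159), and that against Flt3-ITD without Flt3-ITD replicate 1, Npm1c replicate 1 or any WT or neutrophil library (0.0612 to 0.137). The DM call against WT ended without DM replicate 2 or any Flt3-ITD, WT or neutrophil library (0.0538 to 0.204).

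Part of the Cd247 coverage lay inside a neighbouring gene, and which gene it serves was not tested. The region chr1:165769470-165770564 lies inside Creg1 and is cut by the edge of the Cd247 window. Outside the gene's own span, coverage was 330 and 319 bp in WT, 776 and 699 bp in Npm1c, 0 and 119 bp in Flt3-ITD and 0 bp in DM and neutrophil libraries. Inside the span it was 289 and 347 bp in WT, 829 and 1716 bp in Npm1c, 291 and 345 bp in Flt3-ITD and 243 and 0 bp in DM libraries. Within the span alone, the calls for DM (adjusted p = 0.382) and neutrophils (0.0827) against WT and for Npm1c against Flt3-ITD HSPC (0.0679) did not pass. Npm1c replicate 2 alone had a 943 bp region inside the gene at chr1:165844746-165845688, over an H3K4me1 region present in all 10 libraries.

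**Figure D2:**
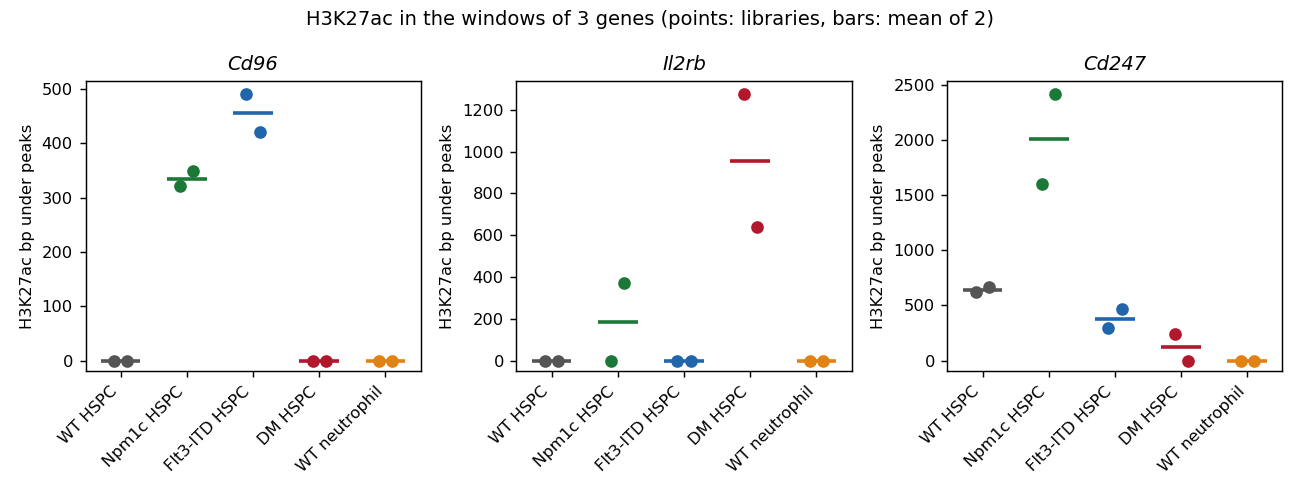
H3K27ac bp under peaks (vertical axis, linear, a scale per panel) in the windows of Cd96, Il2rb and Cd247 by group, with a point for each of the 2 libraries and a bar at their mean. Cd96 is above 0 in the 4 single-mutant libraries, Il2rb is highest in the 2 DM libraries and Cd247 in the 2 Npm1c libraries.

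Read against all genes, 2 of the 3 tested members were called higher in Npm1c than in WT HSPC, where 17.7% of genes were called, and 1 of 3 in Flt3-ITD HSPC, where 0.103% were. In DM against WT HSPC 1 member was higher and 1 lower (13.0% of genes called), and in neutrophils against WT HSPC 1 was lower (36.4%). All 3 were called in DM against Npm1c HSPC (33.9% of genes), 2 in DM against Flt3-ITD HSPC (2.49%) and 1 in Npm1c against Flt3-ITD HSPC (5.45%). A test of whether the effect of Flt3-ITD in Npm1c HSPC differed from its effect in WT HSPC was added to the 7 pairwise comparisons with these values known. It called 18.0% of genes, among them Cd96 (-1.67 ± 0.15 SE, log2 scale, adjusted p = 0.00651) and Cd247 (-1.64 ± 0.33, adjusted p = 0.0227), while Il2rb had 1.11 with adjusted p = 0.0893. Without WT replicate 2 the Cd96 difference had adjusted p = 0.0503, and the Cd247 call ended without Flt3-ITD replicate 2 (0.0762), WT replicate 1 (0.0957) or WT replicate 2 (0.0882) and without the filter (0.0617).

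Markers of other cell types moved with the mutant groups. Summed H3K27ac coverage of the 8 erythroid markers was 31.8 to 50.9 kb in WT and Npm1c libraries, 19.3 and 26.6 kb in Flt3-ITD and 3.83 and 2.65 kb in DM libraries. That of the 8 monocyte and dendritic cell markers was 3.02 to 8.02 kb in WT and Npm1c, 12.7 and 9.66 kb in Flt3-ITD and 32.5 and 16.8 kb in DM libraries. Summed coverage of the T cell markers was 5.12 and 4.95 kb in WT, 7.30 and 8.71 kb in Npm1c, 5.80 and 6.93 kb in Flt3-ITD and 7.50 and 6.06 kb in DM libraries. In neutrophils, which are no T cells, it was 6.08 and 5.68 kb. That of the NK markers was 2.27 and 2.46 kb in WT, 3.67 and 4.78 kb in Npm1c, 2.96 and 3.12 kb in Flt3-ITD and 2.96 and 1.76 kb in DM libraries. In neutrophils it was 1.605 and 1.366 kb. Summed coverage of the HSPC markers was highest in Npm1c, with 7.58 and 7.92 kb in WT, 30.9 and 38.6 kb in Npm1c, 15.7 and 21.7 kb in Flt3-ITD and 19.7 and 11.7 kb in DM libraries. The part of these shifts in the results for Cd96, Il2rb and Cd247 was not tested.

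H3K4me3 was tested for 9 members among 16138 genes, Cd3e having none. Of all genes, 66.6% (neutrophils) to 71.3% (Flt3-ITD HSPC) had H3K4me3 in both libraries of a group. HOMER peaks have a fixed width of 1 kb, so replicates often held equal values and the standard errors of such genes come largely from the other genes of the fit. Gata3, the regulator that specifies early T cells, had less H3K4me3 in neutrophils, though its promoter window was marked in all 10 libraries. It had 6 kb in each of the 8 HSPC libraries and 2 kb in each neutrophil library, with no overlap. Neutrophils were lower than WT HSPC (-1.38 ± 0.0058 SE, log2 scale, adjusted p = 8.04e-11), and the call passed under all 18 alternatives run. The replicates held equal values in every group, so this standard error and p-value measure no spread between replicates. Of the 6 regions at Gata3, 4 were missing from both neutrophil libraries, 3 of them past the annotated start site with gaps of 597, 5511 and 8955 bp to it, and 1 before it with a gap of 3622 bp. The 2 regions present in all 10 libraries lay before the start site, with gaps of 40 and 10226 bp. The annotated start site, chr2:9878600, lies inside the gene's span, chr2:9857078-9887953. Only the region with the gap of 10226 bp lay outside that span.

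**Figure D3:**
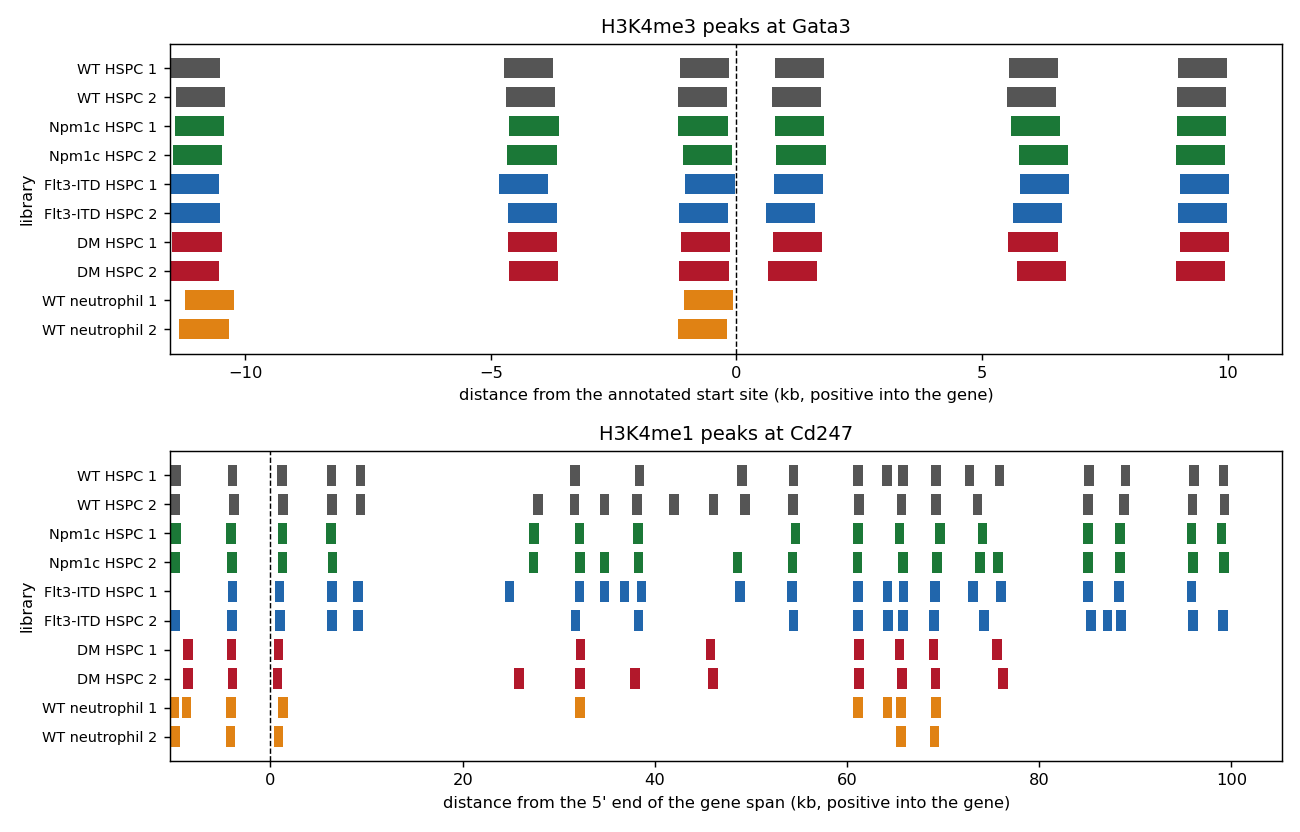
H3K4me3 peaks at Gata3 (top) and H3K4me1 peaks at Cd247 (bottom), each bar 1 peak of 1 kb, by library (rows, coloured by group) and distance in kb from the annotated start site of Gata3 or the 5′ end of the Cd247 span. Neutrophils keep 2 of 6 H3K4me3 regions at Gata3, and DM HSPC and neutrophils have fewer H3K4me1 peaks along Cd247 than the other groups.

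Il2rb had H3K4me3 in WT and DM HSPC and in no other group. Coverage was 1 and 2 kb in WT, 0 and 0 kb in Npm1c, 0 and 0 kb in Flt3-ITD, 1 and 2 kb in DM and 0 and 0 kb in neutrophil libraries. Il2rb passed the H3K4me3 filter only through the WT and DM libraries, so the p-values below describe these values. Differences from 0 kb depend on the added 500 bp. The WT and DM peaks lay in part at different places. The region chr15:78492669-78494575 inside the gene was present in both WT libraries alone. The region chr15:78514138-78515901, beyond the gene, was present in WT replicate 2 and both DM libraries, and chr15:78509936-78510935, which overlaps the DM H3K27ac region, in DM replicate 2. Flt3-ITD HSPC was lower than WT (-1.95 ± 0.32 SE, log2 scale, adjusted p = 0.0475), as were neutrophils (-1.95, adjusted p = 0.0109), while the same difference in Npm1c HSPC did not pass (adjusted p = 0.082). The Flt3-ITD call ended without the filter (0.0889) and with peak centres counted (0.104). DM HSPC was higher than Flt3-ITD (1.95, adjusted p = 0.0256) and Npm1c HSPC (1.95, adjusted p = 0.0193), and the effect of Flt3-ITD differed between Npm1c and WT HSPC (3.91 ± 0.45, adjusted p = 0.00479). Within the gene's own span, where no DM replicate 1 peak lay, none of these calls passed (adjusted p from 0.0679 to 0.496). Calls against WT ended without WT replicate 2 or any Flt3-ITD, Npm1c or neutrophil library for Flt3-ITD (0.0897 to 0.166) and without neutrophil replicate 1 (0.0628) or 2 (0.0655) for neutrophils, and those of DM ended without DM replicate 2 or any Npm1c or neutrophil library, and against Flt3-ITD also without either Flt3-ITD library (0.0537 to 0.114 in all).

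Klrd1, whose product pairs with NKG2 receptors on NK cells, had no H3K4me3 in neutrophils. Coverage was 1 and 1 kb in WT, 1 and 1 kb in Npm1c, 1.57 and 1.44 kb in Flt3-ITD, 1.49 and 1.58 kb in DM and 0 and 0 kb in neutrophil libraries. The 1 kb that all HSPC libraries shared lay inside the gene at chr6:129591229-129592519. Neutrophils were lower than WT HSPC (-1.58 ± 0.03 SE, log2 scale, adjusted p = 4.07e-07), with adjusted p = 0.149 after peak lists were cut at random to equal length and 0.0586 with peak centres counted. The replicates of both groups held equal values, so this standard error measures no spread within them. The excess in Flt3-ITD and DM HSPC was the edge of a region inside the neighbour Klre1, chr6:129582534-129583669, that reached into the Klrd1 window. It was called against WT in Flt3-ITD (0.42, adjusted p = 0.00173) and DM HSPC (0.44, adjusted p = 0.000612), against Npm1c in DM HSPC (0.44, adjusted p = 0.000611), and as lower in Npm1c than Flt3-ITD HSPC (-0.42, adjusted p = 0.0018). Within the span of Klrd1 alone, none of these 4 differences passed (adjusted p = 1 each).

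The other members showed no H3K4me3 difference past the threshold. Cd247 had 5 and 7 kb in WT, 8.69 and 6 kb in Npm1c, 6 and 7 kb in Flt3-ITD, 3 and 3 kb in DM and 3 and 4 kb in neutrophil libraries. Its DM values lay below those of all other HSPC libraries, and the difference of DM HSPC was -1.14 from Npm1c (adjusted p = 0.0526) and -0.88 from WT HSPC (adjusted p = 0.126). Without Npm1c replicate 2 the first was called (0.0377). Cd96 had 1 kb and Eomes 2 kb in each of the 10 libraries. Tcf7 had 1 or 2 kb, Lef1 2 or 3 kb and Tbx21 1 to 4 kb, the last with 1 and 4 kb in the 2 WT libraries. Tcf7 had 2 kb in WT replicate 1 and 1 kb in each other library, and it was called lower in every group than in WT HSPC once WT replicate 2 was left out (-0.74). Among the 9 members, 3 were called lower and 0 higher in neutrophils than in WT HSPC (16.6% of genes called), 1 higher and 1 lower in Flt3-ITD HSPC (2.73%) and 1 higher in DM HSPC (8.17%). In Npm1c against WT HSPC limma called 0 members (1.37% of genes), and 1 had an unadjusted p under 0.05. DM called 2 members higher than Npm1c (8.14%) and 1 higher than Flt3-ITD HSPC (5.66%), Npm1c called 1 lower than Flt3-ITD HSPC (2.52%), and the added test of the Flt3-ITD effect called 1 (5.74%).

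H3K4me1 was found at all 10 members, in every library except at Cd3e in Npm1c replicate 1. Of all genes, 72.7% (neutrophils) to 76.3% (WT HSPC) had H3K4me1 in both libraries of a group. It was tested for all 10 members among 17381 genes. Differences past the threshold were found in neutrophils alone, where 3 of 10 members were lower than in WT HSPC and 23.3% of genes were called. Cd247 had 18.6 and 20.6 kb in WT, 15.6 and 18.6 kb in Npm1c, 20 and 17.6 kb in Flt3-ITD, 9 and 11 kb in DM and 8.53 and 4.59 kb in neutrophil libraries. DM and neutrophil values lay below all others. Neutrophils were lower than WT HSPC (-1.57 ± 0.27 SE, log2 scale, adjusted p = 0.0107), and the call ended without WT replicate 2 (0.0663). The difference between DM and WT HSPC was -0.94 ± 0.27 and did not pass (adjusted p = 0.0654). Of 28 H3K4me1 regions at Cd247, 17 were present in both WT libraries, 10 of these in neither DM library and 10 in neither neutrophil library. Of the 28, 6 were present in all WT, Npm1c and Flt3-ITD libraries and in no DM or neutrophil library, and 4 were present in all 10 libraries.

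Gata3 had 8 and 9 kb of H3K4me1 in WT, 8 and 8 kb in Npm1c, 9 and 8 kb in Flt3-ITD, 9 and 9 kb in DM and 4 and 6 kb in neutrophil libraries. Both neutrophil values lay below all HSPC values, and the difference from WT HSPC was -0.73 ± 0.17 (SE, log2 scale, adjusted p = 0.0295). The call ended without any of the WT, Flt3-ITD or DM libraries (adjusted p from 0.0506 to 0.142) and within the gene's own span (0.0842). Eomes had 3.64 and 5 kb in WT, 4 and 3 kb in Npm1c, 3 and 4 kb in Flt3-ITD, 3 and 3 kb in DM and 2 and 2 kb in neutrophil libraries. Here too the neutrophil values lay below all others (-0.93 ± 0.20 SE, adjusted p = 0.0206). For Eomes the call ended without WT replicate 2 (0.0964), neutrophil replicate 1 (0.0885) or neutrophil replicate 2 (0.0865), and within the gene's own span the difference had the other sign (0.48, adjusted p = 0.542).

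At the other 7 members H3K4me1 did not pass in any comparison. Tcf7, a Notch target in T cell precursors and an effector of Wnt signalling, had 10 and 8 kb in WT, 5 and 8 kb in Npm1c, 10 and 7 kb in Flt3-ITD, 4 and 5 kb in DM and 9 and 10 kb in neutrophil libraries. Its neutrophil values were within the range of WT HSPC, and the DM difference from WT was -0.93 (adjusted p = 0.0652). Lef1 had 8 and 8 kb in WT and 4 and 4 kb in neutrophil libraries, with 4 to 11 kb in the mutants. Its neutrophil difference was -0.92 (adjusted p = 0.0664), and it was called with centring (-0.80, adjusted p = 0.0201) and without Npm1c replicate 1 or 2 (0.00489 and 0.0049). Cd3e had 2 and 1.81 kb in WT, 0 and 2 kb in Npm1c, 2 and 1 kb in Flt3-ITD, 4 and 4 kb in DM and 2 and 1 kb in neutrophil libraries. The DM libraries were the highest for Cd3e, and the difference from WT did not pass (0.90, adjusted p = 0.466). A Cd3e region inside the gene, chr9:45005430-45006492, was present in both DM libraries alone. Il2rb ranged from 2 to 8 kb, Klrd1 from 2.48 to 5.63 kb, Cd96 from 2 to 5 kb and Tbx21 from 3 to 5 kb. For Klrd1 the neutrophil values (2.77 and 2.71 kb) lay below both WT HSPC values (3.09 and 4.84 kb) and within the DM range.

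In the 6 comparisons among HSPC groups, limma called 0 of 10 members for H3K4me1. The share of all genes called was 0.334% in Npm1c, 1.70% in Flt3-ITD and 18.1% in DM against WT HSPC, 15.2% in DM against Npm1c, 9.33% in DM against Flt3-ITD and 1.64% in Npm1c against Flt3-ITD HSPC. At an unadjusted p under 0.05 there were 0, 0, 2, 2, 2 and 1 members in the same order. The added test of the Flt3-ITD effect called 3.35% of genes and 0 members, with 0 at an unadjusted p under 0.05. These counts rested on a few libraries. Without Npm1c replicate 2, Il2rb (-1.26, adjusted p = 0.0473), Lef1 (-0.92, adjusted p = 0.0228) and Cd3e (-2.27, adjusted p = 0.0447) were called lower in Npm1c than in WT HSPC. Without neutrophil replicate 1 or 2, Cd247 was called lower in DM than in WT HSPC (adjusted p = 0.0171 in both), and without Npm1c replicate 1 or 2 so was Tcf7 (0.0441 and 0.044).

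The members were set beside 2 longer lists, of 43 T cell signalling and regulator genes and 34 NK and cytotoxic genes, which do not include them. In WT HSPC, 44.2% of the T cell list and 38.2% of the NK list had H3K27ac in both libraries. The shares were 53.5% and 44.1% in Npm1c HSPC and 53.5% and 47.1% in Flt3-ITD HSPC. They were 65.1% (28 genes) and 50% (17 genes) in DM HSPC and 48.8% and 41.2% in neutrophils. For all genes the share was 54.2% in WT, 56.8% in Npm1c, 55.4% in Flt3-ITD and 54.9% in DM HSPC and 52.5% in neutrophils. All these shares take windows with 10 kb on each side, so neighbours' peaks enter them.

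**Figure D4:**
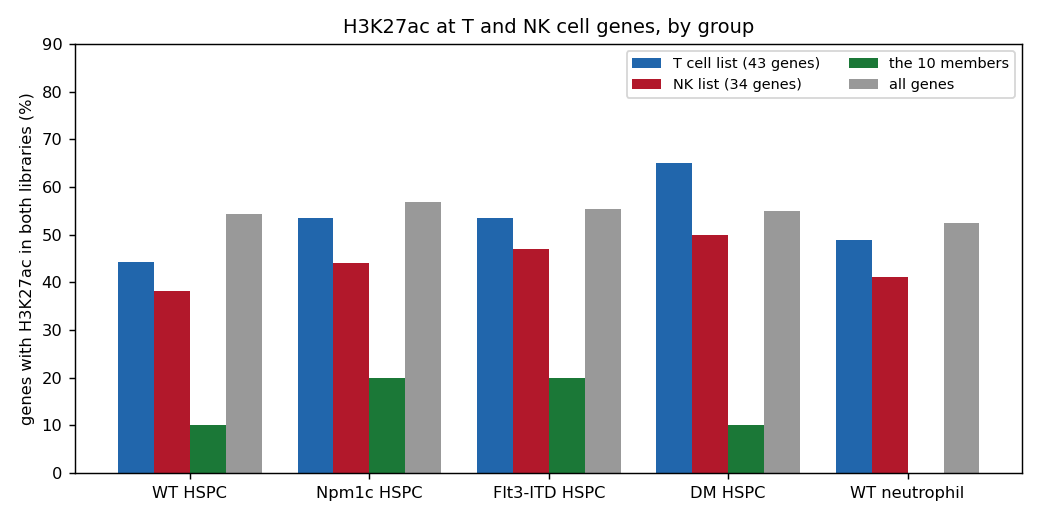
Share of genes (%, vertical axis from 0) with an H3K27ac peak in both libraries of each group, for the T cell list, the NK list, the 10 members and all 21887 genes. The members stand at 0 to 20%, below both lists and all genes in every group, and the T cell list reaches 65.1% in DM HSPC.

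In DM against WT HSPC, 6 of the 32 tested T cell list genes rose and 2 fell in H3K27ac, where 13.0% of all genes were called, with a median of 0.33 against 0.02 over all genes (log2 scale). Tox, a regulator of T cell development and exhaustion, had 0 and 0 kb in WT and 1.51 and 1.38 kb in DM libraries (1.96, adjusted p = 0.00328). Thy1, a surface glycoprotein of thymocytes, had 0 kb in every library but 0.834 and 0.581 kb in DM (1.26, adjusted p = 0.00249). It passed the filter only through the DM libraries, so it could not be tested without either of them. Ctla4, an inhibitory receptor of T cells, rose in DM (1.56, adjusted p = 0.00117), as did Cd6, an adhesion receptor (0.84, adjusted p = 0.0246). Ubash3a, an inhibitor of T cell receptor signalling, had 2.86 and 2.83 kb in WT and 0.719 and 0.759 kb in DM libraries and fell by 1.43 (adjusted p = 0.00186), and Prkcq, the kinase PKC-theta, fell by 0.95 (adjusted p = 0.00657). The Prkcq call ended without WT replicate 1 (0.0643) or 2 (0.0645), and the Cd6 call without either WT or either neutrophil library (0.0733 to 0.143). With peak centres counted, the calls of Tox (0.0556) and Ubash3a (0.162) ended, and without the filter that of Cd6 (0.0565). Of the 20 tested NK list genes 4 rose and 1 fell in DM, with a median of 0.33. Slamf7, an activating receptor, had 0 and 0 kb in WT and 3.37 and 0.761 kb in DM libraries (2.14, adjusted p = 0.0214), and Klrb1b, an inhibitory receptor, rose by 1.60 (adjusted p = 0.0159). Both calls ended without WT replicate 1 or WT replicate 2 (0.0974 to 0.124) and without the filter (0.06 and 0.0776), and the Slamf7 call also within the gene's own span (0.318).

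In Npm1c against WT HSPC, 5 of 32 tested T cell list genes (Ctla4, Lat and Lck among them) and 4 of 20 tested NK list genes (Klrb1b, Zeb2, Klrb1c and Il15ra) rose in H3K27ac and none fell, close to the 17.7% of all genes called. The list medians were 0.32 and 0.49, against 0.36 over all genes, and none of the 9 calls passed after centring. In Flt3-ITD against WT HSPC, Ctla4 of the T cell list rose, from 0 and 0 kb to 1.11 and 0.955 kb (1.61, adjusted p = 0.0177), and no NK list gene passed. The Ctla4 call ended without Flt3-ITD replicate 1 (0.0624), WT replicate 1 (0.368), WT replicate 2 (0.23) or either neutrophil library (0.0697 each).

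In neutrophils against WT HSPC, 9 of the 32 tested T cell list genes had more H3K27ac and 3 less, a share close to the 36.4% of all genes called, while no member had any. Trat1, an adaptor of the T cell receptor complex, had 3.56 and 2.95 kb in neutrophils and 0 kb in all 8 HSPC libraries (2.90, adjusted p = 2.53e-05). It passed the filter only through the neutrophil libraries, so it could not be tested without either of them. Ets1 rose by 2.20 (adjusted p = 0.000235). Cd5, an inhibitory receptor of T cells, fell by 1.64 (adjusted p = 0.00362), and Skap1, an adaptor of T cell receptor signalling, rose by 1.48 (adjusted p = 0.027). The Skap1 call ended without any of the WT HSPC or neutrophil libraries (0.103 to 0.109) and within the gene's own span (adjusted p = 1), where the Cd5 call ended as well (adjusted p = 1), while Ets1 and Cd5 passed without any 1 library. Of the 20 tested NK list genes 4 rose and 4 fell, among them Zbtb16, the factor PLZF of innate-like lymphocytes, which fell by 2.69 (adjusted p = 0.00254). For H3K4me3, 6 of 40 tested T cell list genes fell in neutrophils and none rose (16.6% of all genes called), with Ccr7, Bcl11b and Cd28 among those that fell. Ccr7, a homing receptor, fell by 2.81 (adjusted p = 0.000153) and Bcl11b, which secures T cell commitment, fell by 2.75 (adjusted p = 0.00406).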

How the data were processed

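Peaks of 30 ChIP-seq libraries were used. The submitters' processing notes name Bowtie2 2.1.0, Picard, HOMER, MACS2 and the build mm10. Calling thresholds are not known from these notes. The authors deposited peak coordinates as intervals, with no other measurement such as a score or count, in 1 list per library, named for HOMER (H3K4me1, H3K4me3) or MACS2 (H3K27ac). List length therefore mixes depth, enrichment and calling, and neighbouring windows share peaks. Gene spans and promoters came from RefSeq (GRCm38.p6). Bases under peaks were summed per window with Python 3.11.15, NumPy 2.4.6 and pandas 2.3.3 and drawn with matplotlib 3.10.9. Genes covered in at least 2 libraries of a mark were fitted as log2(bp + 500) over the 5 groups with limma 3.58.1 in R 4.3.3, adjusted by Benjamini-Hochberg over all genes per mark and comparison. The fit was tested on simulated data whose changes were placed in genes covered in WT HSPC. That test does not show how changes from 0 bp are called. Alternatives changed the added bp, filter, window, scaling, list length, replicate block and libraries, and counting peak centres was added after the data were seen. All members were described, and up to 6 called genes per list, mark and comparison were named by size of change, except that some list genes are not reported here by name. The members and lists were chosen with earlier results of these data known.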

Additional observations from a re-analysis of the deposited data

Results flagged for a closer look

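For 3 members the effect of Flt3-ITD differed between Npm1c HSPC and WT HSPC by the test of that difference in limma, each with 2 libraries per group. The test was added with the values of the groups known. At Cd96 the H3K27ac effect of Flt3-ITD was higher coverage in WT HSPC and lower coverage in Npm1c HSPC, a difference of -1.67 on the log2(bp + 500) scale (adjusted p = 0.00651). Cd96 was at 0 bp in WT and DM HSPC and passed the filter only through the single mutants, so its p-value describes these values. The Cd96 call ended without WT replicate 2. At Cd247 the H3K27ac difference was -1.64 (adjusted p = 0.0227), with 291 and 464 bp in Flt3-ITD and 619 and 666 bp in WT libraries, against 243 and 0 bp in DM and 1605 and 2415 bp in Npm1c libraries. The Cd247 call ended without Flt3-ITD replicate 2 or either WT library, and without the filter. At Il2rb the H3K4me3 difference was 3.91 (adjusted p = 0.00479), with 0 kb in all Npm1c and Flt3-ITD libraries and 1 and 2 kb in both WT and DM HSPC. Il2rb passed the H3K4me3 filter only through the WT and DM libraries, so its p-value describes these values. The region inside the gene that both WT libraries held was absent from DM HSPC. Within the gene's own span the Il2rb call did not pass.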

How the results depend on the processing

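Peak lists without counts leave depth unknown, and a gene at 0 bp may have held enrichment under the callers' thresholds. Of 28 calls at the members, 18 ended when some library was left out and 10 passed without any 1 library. Among these 10 were the Klrd1 H3K4me3 calls between HSPC groups. Those came from the edge of a region inside Klre1 and did not pass within the span of Klrd1. The Cd247 H3K27ac drop from Npm1c to DM HSPC and the Gata3 H3K4me3 drop in neutrophils passed under every alternative run on them. Members were called 12 times for H3K27ac, 3 for H3K4me1 and 10 for H3K4me3 over the 7 pairwise comparisons. Totals were 3, 1 and 6 with lists cut by a seeded draw to equal length, 9, 1 and 2 within the gene span alone, 5, 3 and 3 with peak centres counted, 6, 3 and 9 without the filter and 8, 6 and 7 with centring. Cutting H3K27ac lists to their widest peaks gave 7.

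By comparison, centring left 0 H3K27ac calls in Npm1c and in Flt3-ITD against WT, gave 2 H3K4me1 calls in DM against Npm1c, and gave H3K4me3 counts of 1 in DM against Npm1c, 0 in DM, 1 in Flt3-ITD and 1 in Npm1c against WT and 0 in Npm1c against Flt3-ITD. Lists cut by a seeded draw to equal length gave H3K27ac counts of 0 in DM against Flt3-ITD, 1 in DM against Npm1c, 1 in DM against WT, 0 in both single mutants against WT, 0 in Npm1c against Flt3-ITD and 0 for the differing Flt3-ITD effect, an H3K4me1 count of 1 in neutrophils, and H3K4me3 counts of 1 in DM against Npm1c, 0 in DM, 1 in Flt3-ITD and 1 in Npm1c against WT and 0 in Npm1c against Flt3-ITD. The widest peaks gave 1 in DM against Flt3-ITD and 0 in both single mutants against WT. The gene span alone gave H3K27ac counts of 1 in DM against WT and 0 in Npm1c against Flt3-ITD and in neutrophils, 1 for H3K4me1 in neutrophils, and 0 H3K4me3 calls in every comparison but those of neutrophils against WT. No filter gave H3K27ac counts of 1 in DM against Flt3-ITD, 0 in DM against WT, 0 in Npm1c against Flt3-ITD, 1 in Npm1c against WT and 1 for the differing effect, and 1 H3K4me3 call in Flt3-ITD against WT. Peak centres gave the same H3K27ac counts and 0 in neutrophils, and H3K4me3 counts of 1 in DM against Npm1c and 0 in DM against Flt3-ITD, in DM and Flt3-ITD against WT and in Npm1c against Flt3-ITD. Adding 100 bp gave H3K27ac counts of 1 in DM and 1 in Npm1c against WT and 0 in Npm1c against Flt3-ITD, and 1 H3K4me3 call in Npm1c against WT. Adding 2000 bp gave H3K27ac counts of 1 in DM against Flt3-ITD, 1 in DM against WT and 0 in Flt3-ITD against WT, and H3K4me3 counts of 0 in DM against Flt3-ITD, 1 in DM against Npm1c and 1 in Flt3-ITD against WT. Requiring 500 bp left 0 members with H3K27ac in both Flt3-ITD libraries and 1 in both Npm1c libraries. The cause of these moves was not tested.

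The labels used here state no pairing of libraries by replicate number. The correlation of replicate differences between groups ran from -0.231 to 0.278, which cannot settle whether libraries were paired. With a replicate block the totals were 9, 3 and 9, with H3K27ac counts of 1 in DM against Flt3-ITD, 1 in DM against WT and 0 in Flt3-ITD against WT and 1 H3K4me3 call in Flt3-ITD against WT.

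Leaving out 1 library at a time, the H3K27ac total ran from 5 (without either WT or either neutrophil library) to 11, that of H3K4me1 from 0 (without WT replicate 2) to 13 (without Npm1c replicate 2) and that of H3K4me3 from 6 to 13. H3K27ac counts ran from 0 to 2 in DM against Flt3-ITD, DM against WT and Npm1c against WT, from 0 to 1 in Flt3-ITD against WT and Npm1c against Flt3-ITD, from 2 to 3 in DM against Npm1c and from 0 to 3 for the differing effect. H3K4me1 counts ran from 0 to 4 in neutrophils, from 0 to 3 in DM against Npm1c and Npm1c against WT, from 0 to 2 in Npm1c against Flt3-ITD and from 0 to 1 in DM against Flt3-ITD, DM against WT and for the differing effect. H3K4me3 counts ran from 2 to 4 in neutrophils, from 0 to 1 in DM against Flt3-ITD and Npm1c against WT and from 1 to 2 in DM against Npm1c, DM against WT, Flt3-ITD against WT and for the differing effect.

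Directions turned for Eomes H3K4me1 in neutrophils within the gene span alone (0.48), for Il18r1 H3K4me3 in DM against WT with lists cut by that draw (-0.29), and for Id2 H3K4me3 within the span alone in DM (0.10) and neutrophils (0.56) and with centring in neutrophils (0.013).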

Other observations

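In neutrophils, 3 H3K4me1 regions at the members were present in both libraries and in no HSPC library. They lay inside Cd96 at chr16:46075887-46076965, inside Tcf7 at chr11:52279337-52280377 and before the Tcf7 start site at chr11:52292168-52293356. In total Tcf7 had 9 and 10 kb of H3K4me1 in neutrophils and 10 and 8 kb in WT HSPC. At Lef1, the H3K4me3 region chr3:131208081-131209295 inside the gene was present in both Flt3-ITD and both DM libraries, in 1 Npm1c library and in no WT or neutrophil library.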
